A study of Mus musculus with 24 samples.

Results

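Sciatic nerves of mice given LY3214996, an inhibitor of the kinases ERK1 and ERK2 (ERKi), for 1 week were compared with sciatic nerves of mice given vehicle for 1 week. The treatment label of each sample placed 6 libraries in ERKi and 6 in vehicle, 12 of the 24 libraries of the series. A group of 6 given LY3214996 together with the CDK4/6 inhibitor abemaciclib (combination) is used only where named. All of these mice were Nf1 flox/flox PostnCre+, that is, homozygous for floxed Nf1 with Cre expressed from Postn, so vehicle nerves carried the same deletion as ERKi nerves and neither group had Nf1 intact in that lineage. The tumour stage was labelled plexiform neurofibroma, in which the nerve sheath grows into a benign tumour. Dose, age and route were not given in the sources used here, and nothing in the labels says that libraries came from separate animals, so p-values cover no more than the spread among these libraries.

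Nf1 encodes neurofibromin, which switches RAS off, and RAS signals through RAF and MEK to ERK1 and ERK2. Active ERK phosphorylates ternary complex factors and ETS factors, which drive immediate early genes such as Fos and Egr1 within minutes, and it raises its own inhibitors, the Sprouty, Spred and Dusp proteins. In Schwann cells, ERK activity is known to hold back or to promote myelination depending on its strength. RNA of ERK feedback genes is widely used as a readout of pathway output.

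The table listed 24421 genes, and 15385 of them passed the count filter and were tested. Total counts were 14525128 to 24676846 in ERKi libraries and 5391543 to 42321550 in vehicle libraries. Myelin transcripts, which define the nerve, were abundant throughout, with a mean log2 CPM of the 21 myelin genes between 6.63 and 8.56 in ERKi and between 8.21 and 8.63 in vehicle. CPM are counts scaled by TMM to a common library size. The libraries ERKi 3, vehicle 1 and vehicle 5 stood apart from the rest of their groups. ERKi 3 held 4543 CPM of Alb, the albumin of liver, against at most 0.457 CPM in the other ERKi libraries and at most 1.61 CPM in vehicle. The mean log2 CPM of the list of sensory neuron genes was 7.60 to 9.57 in ERKi and 7.14 to 8.32 in 4 vehicle libraries, but 1.88 in vehicle 1 and 4.10 in vehicle 5. Group differences are therefore also given without these 3 libraries, which leaves 5 ERKi and 4 vehicle libraries. The fits that give them left out 8 of the 24 libraries in all, the others coming from groups given abemaciclib. By Xist and Y-linked counts, 3 ERKi and 4 vehicle libraries came from males.

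**Figure D1:**
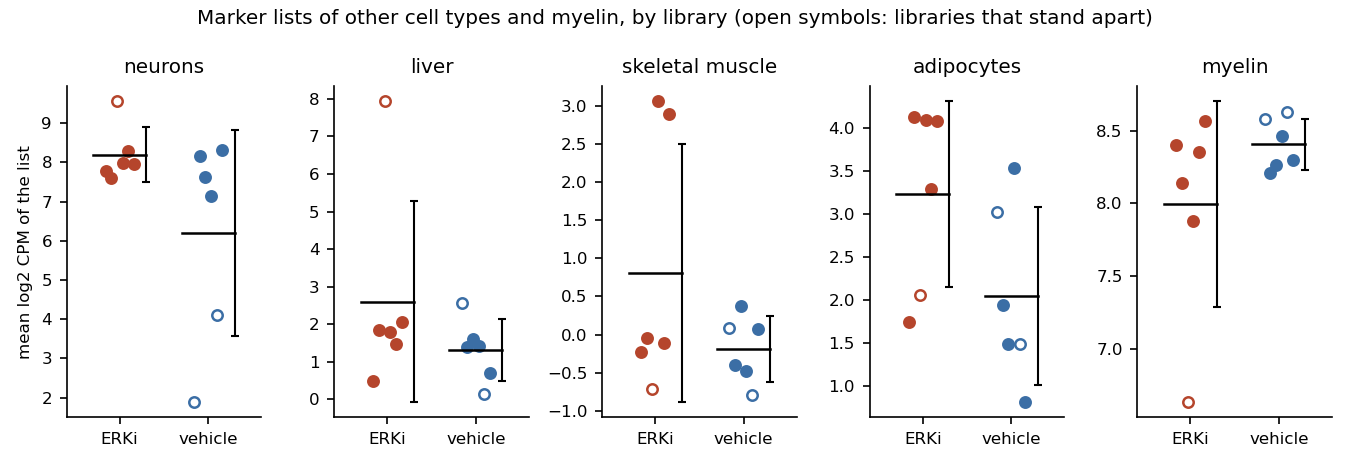
Mean log2 CPM of marker lists for neurons, liver, skeletal muscle, adipocytes and myelin in each ERKi and vehicle library; points are libraries, the horizontal line is the group mean and the bar is its SD (n = 6 each), and open symbols are ERKi 3, vehicle 1 and vehicle 5. ERKi 3 is the highest for liver (7.94) and neurons (9.57) and the lowest for myelin (6.63), and vehicle 1 and vehicle 5 are the lowest for neurons (1.88 and 4.10).

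No gene differed between ERKi and vehicle nerves at an adjusted p below 0.05 (0 of 15385, 0%) by edgeR's quasi-likelihood test after Benjamini-Hochberg adjustment. The smallest adjusted p in that edgeR test was 0.672. At an unadjusted p below 0.05, 528 genes were higher in ERKi (3.43% of those tested) and 447 were lower (2.91%). The count of 975 was 357 without ERKi 3 and 563 without vehicle 5. In the fit without the libraries that stood apart, the edgeR test again called 0 genes. At an unadjusted p below 0.05, that fit had 398 higher (2.55% of 15587) and 249 lower (1.6%). limma-voom called 0 genes with 853 at an unadjusted p below 0.05, and DESeq2 called 11, all higher (0.0701% of 15689). Differences below are therefore given as values with their standard errors, and none of them passed the edgeR test. In whole tissue, fewer cells of a type and less RNA per cell cannot be told apart.

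The genes of the ERK cascade itself lay close to their vehicle levels. Of 21 cascade genes, 13 were higher in ERKi and 8 lower, against 50% below 0 among all genes tested, with a median log2 fold change of 0.08, which was -0.01 without the libraries that stood apart. Nf1 measured 354, 387 and 447 CPM (lowest, median, highest) in ERKi and 290, 357 and 429 CPM in vehicle. The groups overlapped, and because cells outside the Postn-Cre lineage keep Nf1, its RNA in whole nerve does not report on the deletion. Mapk3, which encodes ERK1, averaged 334 ± 61.0 CPM in ERKi and 317 ± 29.6 CPM in vehicle (SD, n = 6 each). Sos1, an exchange factor that loads RAS with GTP, had a log2 fold change of 0.35 ± 0.17 (SE) and Hras one of 0.24 ± 0.12, and ERKi 3 was the highest library for both.

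ERK feedback and ETS target genes were mostly lower in ERKi nerves, with no member passing the test. Of 23 genes on the list, 22 were tested. Of these, 18 were lower in ERKi and 4 higher, and the median log2 fold change was -0.24 against 0.00 over all genes. At an unadjusted p below 0.05 the count was 0. Without the libraries that stood apart, 15 of 23 were lower and the median was -0.04.

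Dusp6, a phosphatase that removes the activating phosphates from ERK, measured 107, 160 and 235 CPM in ERKi and 182, 214 and 259 CPM in vehicle. Its 6 ERKi libraries overlapped the vehicle range through ERKi 2 and ERKi 6, and 5 of 6 lay below the vehicle mean. The log2 fold change was -0.38 ± 0.19 (SE), and -0.22 ± 0.16 without the libraries that stood apart. Spred1, a RAS pathway inhibitor that recruits neurofibromin to the membrane, measured 264, 293 and 309 CPM in ERKi and 297, 342 and 409 CPM in vehicle. All 6 ERKi libraries lay below the vehicle mean, and the ranges met between 297 and 309 CPM. Spred1 had a log2 fold change of -0.27 ± 0.14, and -0.13 ± 0.12 without the libraries that stood apart. Il17rd, a membrane inhibitor of FGF signalling, measured 7.32, 15.7 and 21.2 CPM in ERKi and 17.6, 20.4 and 21.9 CPM in vehicle, a log2 fold change of -0.43 ± 0.22. Ier3, an early response gene, was at -0.42 ± 0.21 with 6 of 6 ERKi libraries below the vehicle mean.

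The Sprouty genes, which block RAS activation downstream of receptors, and the second Spred gene had smaller log2 differences. Spry1, Spry2 and Spry4 had log2 fold changes of -0.24 ± 0.24, -0.10 ± 0.16 and -0.26 ± 0.32, and Spred2 was at 0.01 ± 0.10. Spry2 was at 0.17 and Spry4 at 0.00 without the libraries that stood apart. The phosphatase genes Dusp4 and Dusp5 were at -0.11 ± 0.27 and 0.35 ± 0.38, and Dusp5 was at -0.04 without those libraries.

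Among the PEA3 ETS factors, Etv1 measured 186, 195 and 256 CPM in ERKi and 215, 227 and 356 CPM in vehicle. For Etv1 the log2 fold change was -0.24 ± 0.16, and -0.39 ± 0.15 without the libraries that stood apart. Etv4 averaged 14.8 ± 4.36 CPM in ERKi and 18.6 ± 5.57 CPM in vehicle, and Etv5 averaged 59.9 ± 17.5 CPM in ERKi and 56.3 ± 10.6 CPM in vehicle (SD, n = 6 each). Etv5 was thus higher in ERKi by the group means, but its log2 fold change of 0.09 was -0.17 without the libraries that stood apart. Ccnd1, the cyclin D1 gene that mitogens induce, ranged over 211 to 344 CPM in ERKi and 139 to 700 CPM in vehicle. Its log2 fold change was -0.33 ± 0.38, and 0.16 without the libraries that stood apart. Myc, a growth-promoting transcription factor, was at -0.21 ± 0.18 and Phlda1, an ERK-induced adaptor gene, at -0.27 ± 0.26.

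**Figure D2:**
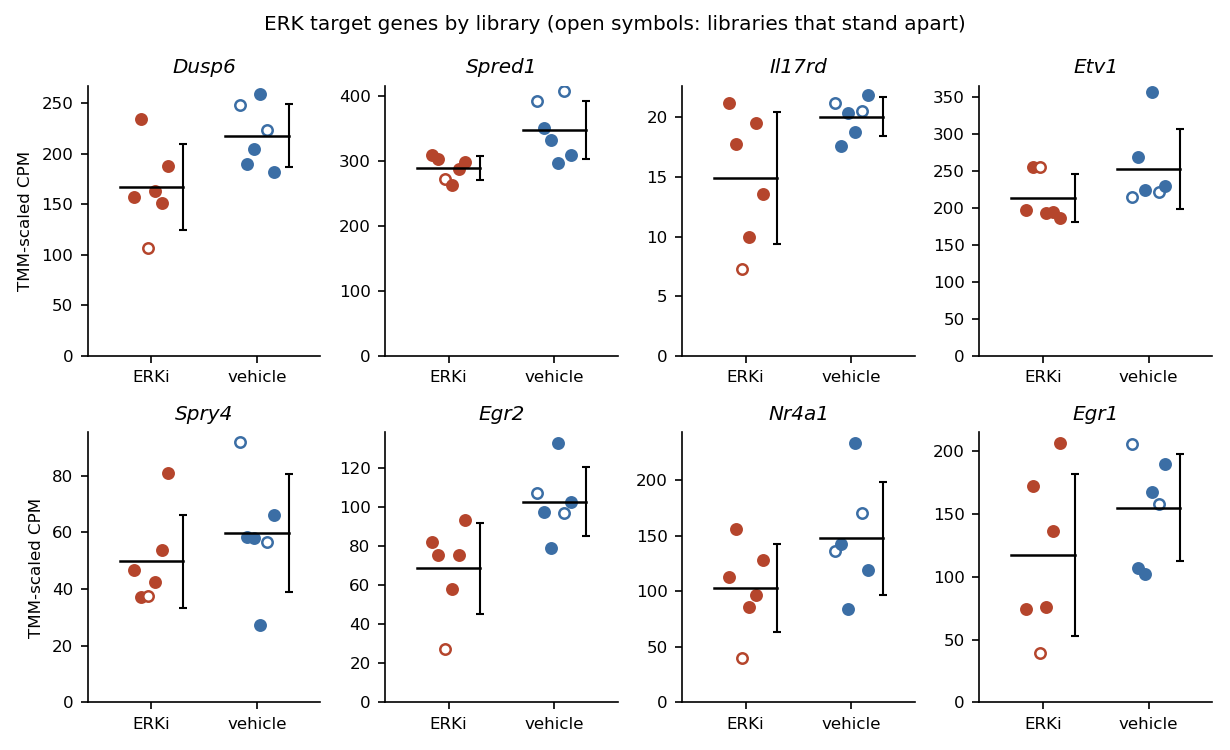
TMM-scaled CPM of 8 ERK target genes in each ERKi and vehicle library; points are libraries, the line is the group mean, the bar is its SD (n = 6 each) and open symbols are ERKi 3, vehicle 1 and vehicle 5. Group means are lower in ERKi in all 8 panels, and the ranges overlap in all 8, as for Dusp6 with 107 to 235 CPM in ERKi and 182 to 259 CPM in vehicle. Target genes with higher group means in ERKi, such as Dusp5, Etv5 and Spred2, are not drawn.

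Immediate early genes, which growth factors induce without new protein synthesis, were also mostly lower in ERKi. Of 21 tested members, 19 were lower in ERKi and 2 higher, and the median difference on the log2 scale was -0.23. A subset of 3 (Cyr61, Nr4a1 and Egr2) had an unadjusted p below 0.05, all lower. The fit without the libraries that stood apart had 12 of 21 lower, and the median was -0.05. Egr2, a zinc finger factor that Schwann cells need for myelination, measured 27.1, 75.5 and 93.5 CPM in ERKi and 78.9, 100.1 and 133 CPM in vehicle. ERKi values all lay below the vehicle mean, with ERKi 1 and ERKi 6 inside the vehicle range. The log2 fold change was -0.58 ± 0.28, and -0.42 ± 0.27 without the libraries that stood apart.

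Nr4a1, an orphan nuclear receptor, measured 40.3, 105 and 156 CPM in ERKi and 84.5, 139 and 233 CPM in vehicle, a log2 fold change of -0.52 ± 0.25. Cyr61, a matricellular protein gene, was at -0.60 ± 0.28, and the related Ctgf was at -0.60 ± 0.46. Without vehicle 4 alone, Ctgf was at 0.06. ERKi 3 was the lowest ERKi library for Cyr61 at 6.01 CPM, and without the libraries that stood apart Cyr61 was at -0.35 ± 0.20. Egr1 measured 39.3, 106 and 206 CPM in ERKi and 102, 163 and 205 CPM in vehicle, and Fos measured 19.9, 41.3 and 123 CPM in ERKi and 26.9, 67.7 and 86.4 CPM in vehicle. Both ranges overlapped widely. Their log2 fold changes of -0.40 ± 0.44 and -0.20 ± 0.39 were -0.08 and 0.23 without the libraries that stood apart.

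The sequences upstream of 4 of these genes are shown because ERK reaches its early targets through serum response factor and ETS proteins, whose binding letters can be read in them. They are the 250 bases before a RefSeq start on the gene's own strand, in GRCm38.p6, at chr10:99262981-99263230 for Dusp6, chr19:53528895-53529144 for Dusp5, chr10:67537680-67537929 for Egr2 and chr15:101266596-101266845 for Nr4a1, all on the plus strand. For a gene with several starts, such as Egr2 with 5 in the table, the most downstream window that held a match is shown. Where no window held a match, the most downstream one is shown. A match in such a window was thus set by the choice. Capitals mark matches on either strand to the core ETS motif CCGGAA, the AP-1 motif TGANTCA, the cAMP response motif TGACGTCA, the E-box CACGTG or the CArG box, the site of serum response factor.
Dusp6: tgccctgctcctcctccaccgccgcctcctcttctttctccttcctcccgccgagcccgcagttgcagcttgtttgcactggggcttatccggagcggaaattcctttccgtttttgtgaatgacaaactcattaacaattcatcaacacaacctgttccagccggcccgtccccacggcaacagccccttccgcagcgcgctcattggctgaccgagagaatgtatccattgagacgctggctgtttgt
Dusp5: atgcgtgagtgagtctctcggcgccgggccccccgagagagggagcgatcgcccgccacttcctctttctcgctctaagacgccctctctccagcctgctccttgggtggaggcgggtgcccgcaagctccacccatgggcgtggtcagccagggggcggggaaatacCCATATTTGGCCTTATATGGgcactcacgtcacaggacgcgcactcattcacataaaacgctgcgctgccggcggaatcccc
Egr2: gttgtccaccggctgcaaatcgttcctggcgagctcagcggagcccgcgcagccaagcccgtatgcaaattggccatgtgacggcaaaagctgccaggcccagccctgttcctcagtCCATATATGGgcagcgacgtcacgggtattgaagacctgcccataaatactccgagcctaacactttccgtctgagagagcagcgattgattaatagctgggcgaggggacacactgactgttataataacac
Nr4a1: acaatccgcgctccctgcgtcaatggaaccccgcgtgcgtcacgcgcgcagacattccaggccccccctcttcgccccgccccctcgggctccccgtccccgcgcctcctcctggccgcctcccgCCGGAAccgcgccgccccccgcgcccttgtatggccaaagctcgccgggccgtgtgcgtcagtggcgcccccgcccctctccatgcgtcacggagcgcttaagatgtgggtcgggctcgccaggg
The Dusp5 window held a pair of CArG boxes side by side, beginning 82 and 72 bases before the start. The Egr2 window held a CArG box beginning 133 bases before its start, the Nr4a1 window an ETS match beginning 125 bases before its start, and the Dusp6 window held none of these motifs. Among all 32851 promoter windows of this length, 1.47% held a CArG box, 12% an ETS match, 6.75% an AP-1 match, 1.55% a cAMP response match and 6.02% an E-box. Of the 20 windows of the 16 immediate early genes found in the table, 4 held a CArG box (20%), and these 4 were starts of Egr2. Of the 18 windows of 16 feedback genes, 1 did (5.56%), that of Dusp5. ETS matches were in 2 of the 20 immediate early windows (10%) and in 0 of the 18 feedback windows, against 12% of all windows. A match describes the letters and not a site in use.

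Cdo1, Dgat2, Thrsp and Hp had the smallest unadjusted p-values among genes higher in ERKi whose mean log2 CPM was 1 or more and which lay above the vehicle mean in at least 5 of 6 ERKi libraries. Thrsp (chr7:97412933-97417550), a nuclear protein gene induced with fatty acid synthesis, measured 4.77, 13.7 and 18.5 CPM in ERKi and 2.60, 4.69 and 7.99 CPM in vehicle. All 6 ERKi libraries lay above the vehicle mean, and ERKi 1 alone lay inside the vehicle range. Its log2 fold change was 1.45 ± 0.35 (SE), and 1.55 ± 0.40 without the libraries that stood apart. Dgat2 (chr7:99153663-99182713), the enzyme of the last step of triglyceride synthesis, measured 5.50, 13.8 and 17.3 CPM in ERKi and 2.86, 5.30 and 11.5 CPM in vehicle. ERKi 1 again lay among the vehicle libraries, and vehicle 1 lay closest to the other 5 ERKi libraries. Dgat2 had a log2 fold change of 1.10 ± 0.26, and 1.28 ± 0.28 without the libraries that stood apart.

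Cdo1, the enzyme that begins cysteine breakdown, measured 8.88, 22.5 and 68.7 CPM in ERKi and 4.55, 7.31 and 13 CPM in vehicle. The highest value was that of ERKi 3, the library with liver transcripts, and without the libraries that stood apart the log2 fold change of 1.81 ± 0.41 was 1.12 ± 0.27. Hp, the haemoglobin-binding plasma protein made in liver and fat, measured 1.15, 7.22 and 48.2 CPM in ERKi and 0.179, 0.974 and 3.51 CPM in vehicle. ERKi 3 was again the highest. DESeq2 called Cdo1, Dgat2, Thrsp and Hp among its 11 genes, with adjusted p-values of 0.011, 0.023, 0.0498 and 0.0115, whereas the edgeR adjusted p of each was 0.672.

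The other DESeq2 calls, beside 1 predicted gene, rested on ERKi 3. Alb, Ambp, Cml2, Cyp8b1, Hsd3b3 and Serpinc1, genes known for their expression in liver or kidney, had too few counts in the other libraries to be tested by edgeR. Ambp was at 57.0 CPM in ERKi 3 and at most 0.114 CPM in the other ERKi libraries, with 0 counts in the 6 vehicle libraries, where 3 counts would be 0.0697 to 0.536 CPM. Cyp8b1 was at 21.7 CPM in ERKi 3 with 0 counts in the other 11 libraries. DESeq2 called 6 genes when the libraries that stood apart were left out, all higher (0.0259% of 23210). Dgat2 was the only one shared with the 11. The other 5, named after their values were seen, were Lpl, Alad, Cep85l, Insc and Gbp2b. Alad, which makes a haem precursor, had an edgeR log2 fold change of 0.23 ± 0.14 with all libraries and 0.53 ± 0.11 without the 3. Cep85l, a centrosomal protein gene, was at 0.20 ± 0.13 and 0.47 ± 0.09 on the same scale, and Insc, a spindle orientation gene, at 0.12 ± 0.20 and 0.60 ± 0.12.

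Gbp2b, an interferon-induced GTPase gene, had 1 library in each group far from the other 5. It measured 5.01 to 23.6 CPM in 5 ERKi libraries and 0.057 CPM in ERKi 5. In vehicle it measured 39.3 CPM in vehicle 1 and 0.0929 to 0.536 CPM in the other 5. Its call without vehicle 1 thus left out the vehicle library with the highest value.

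Adipocyte transcripts as a group were higher in ERKi libraries. Of 13 adipocyte genes, 11 were higher in ERKi and 9 of these had an unadjusted p below 0.05, and the median log2 fold change was 1.14. It was 1.64 without the libraries that stood apart, again with 11 of 13 higher and 9 at an unadjusted p below 0.05. Leaving out 1 library at a time gave medians between 1.01 and 1.46. The mean log2 CPM of the list was 1.75, 3.68 and 4.13 (lowest, median, highest) in ERKi and 0.81, 1.72 and 3.54 in vehicle. ERKi 1, ERKi 3 and ERKi 5 lay within the vehicle range, and vehicle 4 and vehicle 1 were the highest of their group.

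Lpl, the lipase that frees fatty acids from lipoproteins, measured 11.1, 36.1 and 56.3 CPM in ERKi and 7.42, 13.4 and 30.1 CPM in vehicle. Cfd, the adipocyte protease adipsin, was at 2.01 ± 0.67 and Car3, a carbonic anhydrase abundant in fat and muscle, at 1.98 ± 0.66 on the log2 scale. Adipoq, the adiponectin gene and a defining adipocyte marker, was not at 0 in any library, with 1.39 to 21.7 CPM in ERKi and 0.623 to 9.23 CPM in vehicle. With the adipocyte list as a covariate, the log2 fold changes of Lpl, Dgat2 and Thrsp were 0.10, 0.73 and 1.09. Lpl and Dgat2 belong to that list and Thrsp does not.

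Skeletal muscle transcripts were present in ERKi 4 and ERKi 6. The mean log2 CPM of the muscle list was 3.06 and 2.89 in these libraries, against -0.72 to -0.04 in the other ERKi libraries and -0.79 to 0.38 in vehicle. Acta1, the muscle actin, measured 16 and 8.41 CPM in ERKi 4 and ERKi 6 and at most 0.571 CPM in vehicle. ERKi 4 and ERKi 6 also had high adipocyte levels, at 4.09 and 4.08, and without them the adipocyte median was 0.87 and the log2 fold changes of Thrsp, Dgat2 and Lpl were 1.14, 0.87 and 0.77. The part of adipose, muscle and liver transcripts in the differences given here was not tested.

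**Figure D3:**
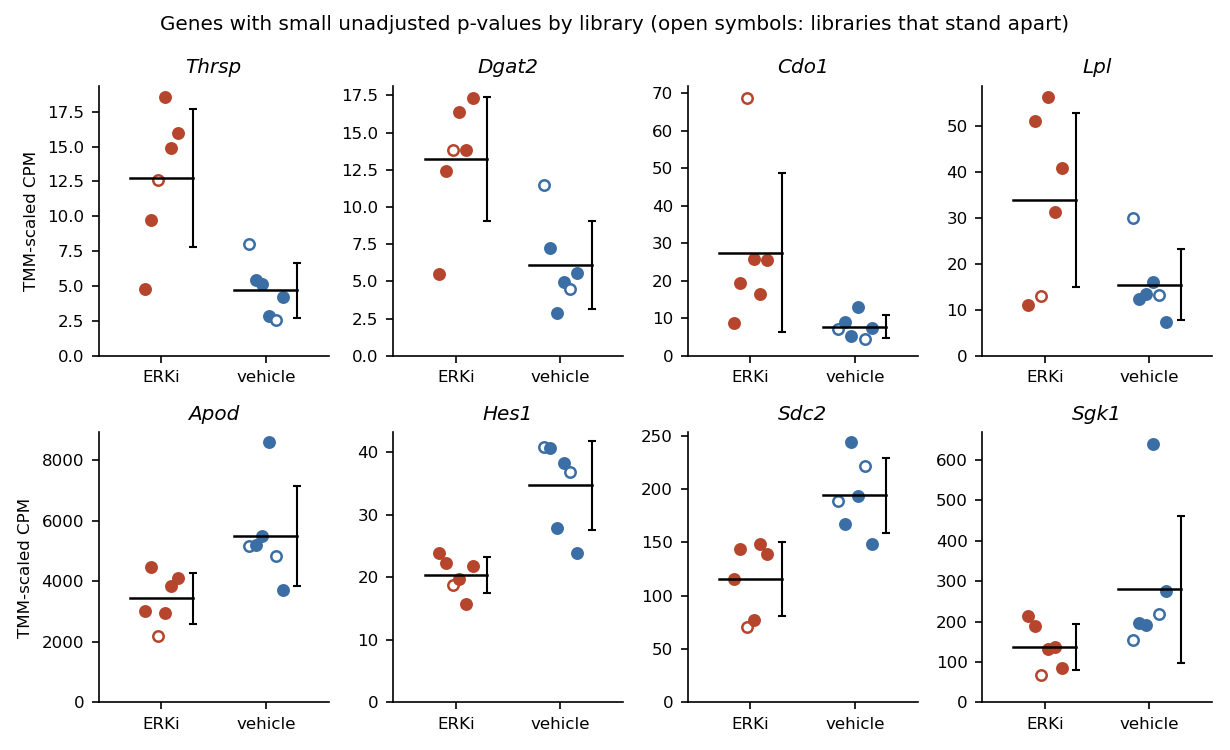
TMM-scaled CPM of 8 genes in each ERKi and vehicle library; points are libraries, the line is the group mean, the bar is its SD (n = 6 each) and open symbols are ERKi 3, vehicle 1 and vehicle 5. Thrsp, Dgat2, Cdo1 and Lpl have higher means in ERKi, as for Thrsp with 12.8 against 4.71 CPM in vehicle, and Apod, Hes1, Sdc2 and Sgk1 have lower ones, as for Apod with 3438 against 5500.4 CPM in vehicle.

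Among genes lower in ERKi that passed the same limits on level and direction, Hes1 had the smallest unadjusted p. Hes1 (chr16:30065357-30067796), a repressor that Notch signalling induces, measured 15.7, 20.8 and 23.9 CPM in ERKi and 23.9, 37.6 and 40.9 CPM in vehicle. The groups met at ERKi 1 and vehicle 6 and lay apart otherwise. The log2 fold change was -0.77 ± 0.21, and -0.66 ± 0.20 without the libraries that stood apart. Leaving out 1 library at a time gave values between -0.87 and -0.73. Other genes of small unadjusted p lower in ERKi were Pcdhb16, Cyth3, Arsb, Zdhhc5, Sept10, Pomk and Znhit6, with log2 fold changes from -0.27 (Zdhhc5) to -0.51 (Znhit6). Arsb is a lysosomal sulfatase, Pomk a kinase that modifies the sugar chains of dystroglycan, and Cyth3 an ARF exchange factor. Those higher in ERKi, beside Cdo1, Dgat2, Thrsp and Hp, were Lzts3, Pawr, Mpnd, Fndc4, Znhit1 and Mark4, from 0.33 (Mpnd) to 1.04 (Pawr), a promoter of apoptosis.

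The 6 ERKi libraries did not overlap the 6 vehicle libraries for 37 genes, 0.24% of those tested. That share is close to the one chance gives for 6 against 6 libraries, so separate ranges alone single out no gene. Among the genes of smallest unadjusted p these were Pawr, Mpnd and Znhit1 (higher) and Sept10 and Pomk (lower). Pawr measured 1.80, 2.26 and 6.51 CPM in ERKi and 1.12, 1.37 and 1.69 CPM in vehicle, with ERKi 3 highest, and its log2 fold change of 1.04 ± 0.30 was 0.63 ± 0.23 without the libraries that stood apart. Ifitm10 also had separate ranges and a mean difference of over 2-fold, at 2.33, 2.92 and 6.07 CPM in ERKi and 0.473, 1.86 and 2.25 CPM in vehicle. ERKi 3 was again highest. The Ifitm10 log2 fold change of 1.04 ± 0.41 was 0.79 without ERKi 3 and 0.48 ± 0.24 without the libraries that stood apart. Sdc2 and Siglec1 are named after their values were seen. Sdc2, the heparan sulfate proteoglycan syndecan-2, measured 71.0, 127 and 148 CPM in ERKi and 149, 191 and 244 CPM in vehicle, a log2 fold change of -0.75 ± 0.24. Siglec1, a lectin of tissue macrophages, measured 5.68, 7.41 and 9.45 CPM in ERKi and 9.49, 11.4 and 15.2 CPM in vehicle, a log2 fold change of -0.65 ± 0.45.

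Most extracellular matrix genes were lower in ERKi in the fit to all libraries. Of 28 matrix genes, 27 were lower in ERKi and 1, Eln, was higher, and the median log2 fold change was -0.61. Loxl1, Thbs1, Mmp14 and Bgn had an unadjusted p below 0.05, all lower. In the fit that left out the libraries that stood apart, 23 of 28 were lower, the median was -0.22 and 0 had an unadjusted p below 0.05. The mean log2 CPM of the list was 6.10, 7.93 and 8.34 in ERKi and 7.85, 8.37 and 8.72 in vehicle, with ERKi 3 the lowest. Without ERKi 3 alone the median was -0.43.

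Thbs1 (chr2:118111876-118127133), the thrombospondin that activates TGF-beta, measured 40.1, 145 and 324 CPM in ERKi and 200.2, 339 and 540 CPM in vehicle. Each ERKi library lay below the vehicle mean, with ERKi 5 and ERKi 6 inside the vehicle range. The log2 fold change was -1.04 ± 0.43, and -0.61 ± 0.34 without the libraries that stood apart. Bgn, a small proteoglycan of the matrix, measured 155, 206 and 274 CPM in ERKi and 260, 314 and 378 CPM in vehicle, a log2 fold change of -0.59 ± 0.28. Loxl1, which crosslinks elastin, was at -0.60 ± 0.24 and Mmp14, a membrane-bound matrix protease, at -0.52 ± 0.21. Postn, whose promoter drives the Cre, was at -0.62 ± 0.42 with all libraries and -0.05 ± 0.37 without the 3.

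**Figure D4:**
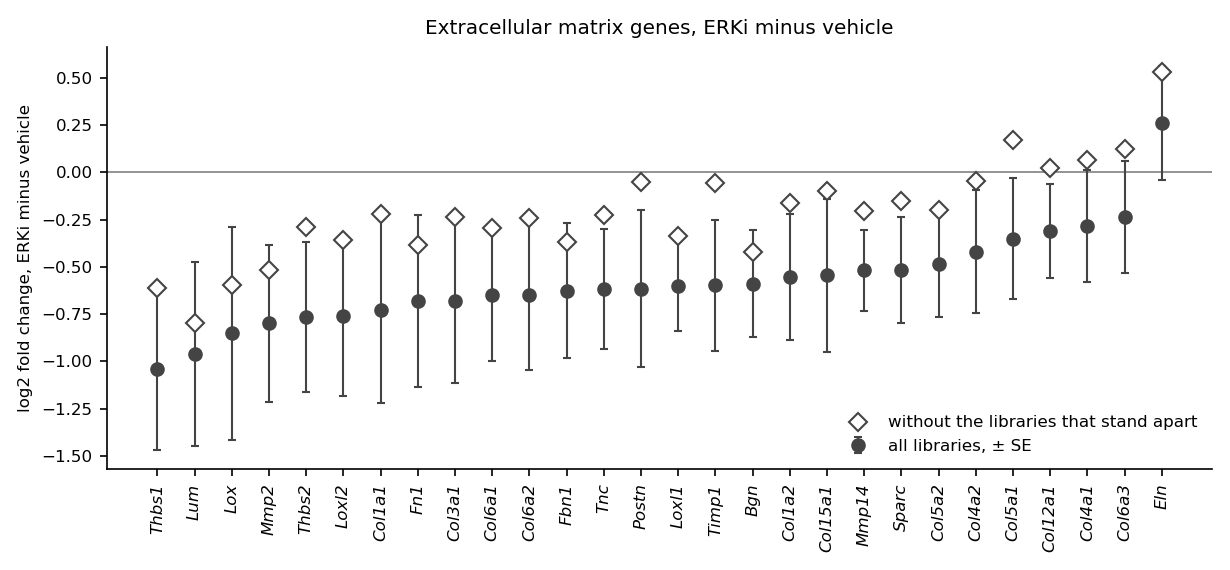
Log2 fold change, ERKi minus vehicle, of the 28 extracellular matrix genes; filled circles with bars are the fit to all libraries ± SE, and open diamonds are the fit without the libraries that stand apart. In the fit to all libraries 27 of 28 genes lie below 0, from -1.04 for Thbs1, and in the other fit 23 of 28 do, with smaller changes for most genes.

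Nerve fibroblast genes were lower in ERKi for 9 of 12 tested members, with a median of -0.43 that was -0.30 without the libraries that stood apart. Apod (chr16:31296192-31314808), an apolipoprotein that endoneurial fibroblasts secrete, measured 2184, 3447 and 4474 CPM in ERKi and 3703, 5177 and 8602 CPM in vehicle. All 6 ERKi libraries lay below the vehicle mean, and 3 of them below the whole vehicle range. Its log2 fold change was -0.68 ± 0.23, and -0.63 ± 0.27 without the libraries that stood apart. Dcn, the proteoglycan decorin, was at -0.65 ± 0.29, Lum, the related lumican, at -0.96 ± 0.49, and Pdgfra, the PDGF receptor of fibroblasts, at -0.65 ± 0.35. ERKi 3 was the lowest ERKi library for each of the 4. The 8 tested genes of perineurial cells, which wrap nerve fascicles, had a median of -0.09, with 6 lower.

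All 21 of 21 myelin genes were lower in ERKi, and their median log2 difference was -0.33. Without the libraries that stood apart, 13 of 21 were lower and the median was -0.04, and without ERKi 3 alone it was -0.14. Egr2, described above, was the only member with an unadjusted p below 0.05. Pou3f1, a factor of promyelinating Schwann cells, was at -0.44 ± 0.26, and Gldn, a protein of the node of Ranvier, at -0.39 ± 0.26. Of 15 genes of non-myelinating and repair Schwann cells, 11 were lower with a median of -0.16, and the median was -0.02 without those libraries. Ngfr, the p75 neurotrophin receptor of these cells, was higher, at 0.56 ± 0.32 with all libraries and 0.12 ± 0.23 without the 3.

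Neuron transcripts were higher in ERKi for 10 of 10 members, with a median of 1.00 that was 0.05 without the libraries that stood apart. Vehicle 1 and vehicle 5 were set apart by their low neuron level, so the smaller median follows from leaving them out. Scn10a, which encodes a sodium channel of pain-sensing neurons, measured 169 to 634 CPM in ERKi and 0.355 to 375 CPM in vehicle. The lowest vehicle values were those of vehicle 1 and vehicle 5. Genes on the satellite glia list had a list mean between 7.64 and 7.80 log2 CPM in ERKi and between 7.37 and 8.04 in vehicle, with 6 of 8 lower and a median of -0.22. Vehicle 1 and vehicle 5 were at 7.66 and 7.83, so the mean of this list did not follow the neuron transcripts. The higher members, Fabp7 and Ptprz1, had log2 fold changes of 1.00 ± 0.66 and 0.09 ± 0.23. Without the libraries that stood apart these were 0.26 and 0.003. The list members Pou3f1 and Hmgcs1 are also on the myelin and cholesterol synthesis lists.

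Macrophage genes were lower in ERKi for 15 of 16 members. The median was -0.27, and it was -0.31 with 14 of 16 lower without the libraries that stood apart. The list mean was 4.35, 4.49 and 4.92 log2 CPM in ERKi and 4.57, 4.92 and 5.12 in vehicle. Mertk, a receptor that macrophages use to engulf dying cells, measured 34.5, 88.0 and 129 CPM in ERKi and 72.7, 122 and 271 CPM in vehicle, a log2 fold change of -0.67 ± 0.31. Mertk was the only macrophage gene with an unadjusted p below 0.05, and the count was 0 without the libraries that stood apart. The resident macrophage genes Folr2, Lyve1 and Mrc1 were at -0.75 ± 0.43, -0.46 ± 0.30 and -0.40 ± 0.28. MHC class II genes had a median of -0.11 with 7 of 10 lower, and -0.29 without those libraries. Mast cell genes had a median of -0.30 with 7 of 9 lower, which was 0.02 without vehicle 3, the vehicle library with the highest mast cell level. Of 15 T and NK cell genes 4 were tested, of 8 B cell genes 2, and of 10 neutrophil genes 0.

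Type I interferon genes were lower for 19 of 22 members with a median of -0.21, but 11 of 22 were lower with a median of 0.01 without the libraries that stood apart. Single members differed in direction. Rsad2 (chr12:26442743-26456452), the antiviral enzyme viperin, measured 3.16, 4.62 and 6.99 CPM in ERKi and 1.43, 3.12 and 3.84 CPM in vehicle. All 6 ERKi libraries lay above the vehicle mean, and the log2 fold change was 0.69 ± 0.23, and 0.81 ± 0.28 without the libraries that stood apart. Stat2, a transducer of interferon signals, was at 0.27 ± 0.14. Xaf1, an interferon-induced gene, was at -0.33 ± 0.18 with all libraries and -0.04 ± 0.12 without the 3.

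Endothelial genes were higher in ERKi for 9 of 12 members with a median of 0.08. Without the libraries that stood apart, 12 of 12 were higher, the median was 0.29, and Tie1 and Eng had an unadjusted p below 0.05. With the adipocyte list as a covariate the median was -0.22. Tie1, an endothelial receptor kinase gene, measured 8.09, 13.8 and 15.7 CPM in ERKi and 7.14, 8.80 and 14 CPM in vehicle. Its ranges overlapped, and the log2 fold change was 0.35 ± 0.30 with all libraries and 0.74 ± 0.21 without the 3. Pericyte and smooth muscle genes had a median of -0.17 with 8 of 12 lower, and 0.09 without those libraries.

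Glucocorticoid response genes, which respond to corticosterone, were lower in ERKi for 12 of 12 members with a median of -0.52. Without the libraries that stood apart, 11 of 12 were lower and the median was -0.53. Sgk1, Klf9 and Zbtb16 had an unadjusted p below 0.05. Sgk1 (chr10:21882184-21999903), a kinase that regulates ion transport, measured 67.5, 134 and 213 CPM in ERKi and 153, 208 and 639 CPM in vehicle. The highest value was that of vehicle 4, and the log2 fold change of -1.03 ± 0.40 was -0.60 without that library. Klf9, a hormone-induced zinc finger factor, was at -0.75 ± 0.33, with vehicle 4 also highest, and Zbtb16, a repressor, was at -1.17 ± 0.53. Without vehicle 4 the median of the list was -0.18. Clock genes, which follow the time of day, were lower for 13 of 14 members with a median of -0.23, and -0.20 without the libraries that stood apart. Ciart, a repressor of the clock, was at -0.998 ± 0.41, Per1, a member of both lists, at -0.52 ± 0.37, and Nr1d1 at -0.31 ± 0.23. The time of day of collection was not given in the sources used here, and its part was not tested.

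Cell cycle genes gave no call. Of 35 E2F and DNA replication genes, 19 were lower and 16 higher with a median of -0.02, and -0.01 without the libraries that stood apart. Rfc3, a clamp loader subunit, was at -0.34 ± 0.16, Pcna, the replication clamp, at -0.30 ± 0.17, and Rrm2, the ribonucleotide reductase subunit, at -0.59 ± 0.34. Of 30 mitosis genes, 23 were lower with a median of -0.22, but the median was 0.05 without those libraries. Mki67, the proliferation marker Ki-67, measured 8.71, 9.87 and 19.7 CPM in ERKi and 3.24, 17 and 21.6 CPM in vehicle, so the ERKi range lay inside the vehicle range. The low mitosis members Ndc80 and Birc5 were at -0.9996 ± 0.51 and -0.67 ± 0.36, at levels of at most 2.14 CPM in each of the 12 libraries. Ttk, a checkpoint kinase, was at -0.60 ± 0.31. In the fit without the libraries that stood apart, Ttk was at -0.23, whereas Ndc80, Birc5 and Rrm2 were at -1.17, -0.77 and -0.69 with unadjusted p-values of 0.0361, 0.0397 and 0.0457 from edgeR, and none was called.

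Receptor tyrosine kinases and their ligands had a median of -0.08 with 20 of 31 lower, and 0.04 without the libraries that stood apart. Btc and Hbegf, ligands of the EGF receptor, were at -0.67 ± 0.39 and -0.41 ± 0.24, and Hbegf was at 0.08 without those libraries. Cholesterol synthesis genes had a median of 0.04, integrated stress response genes of -0.01 and p53 target genes of 0.01.

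**Figure D5:**
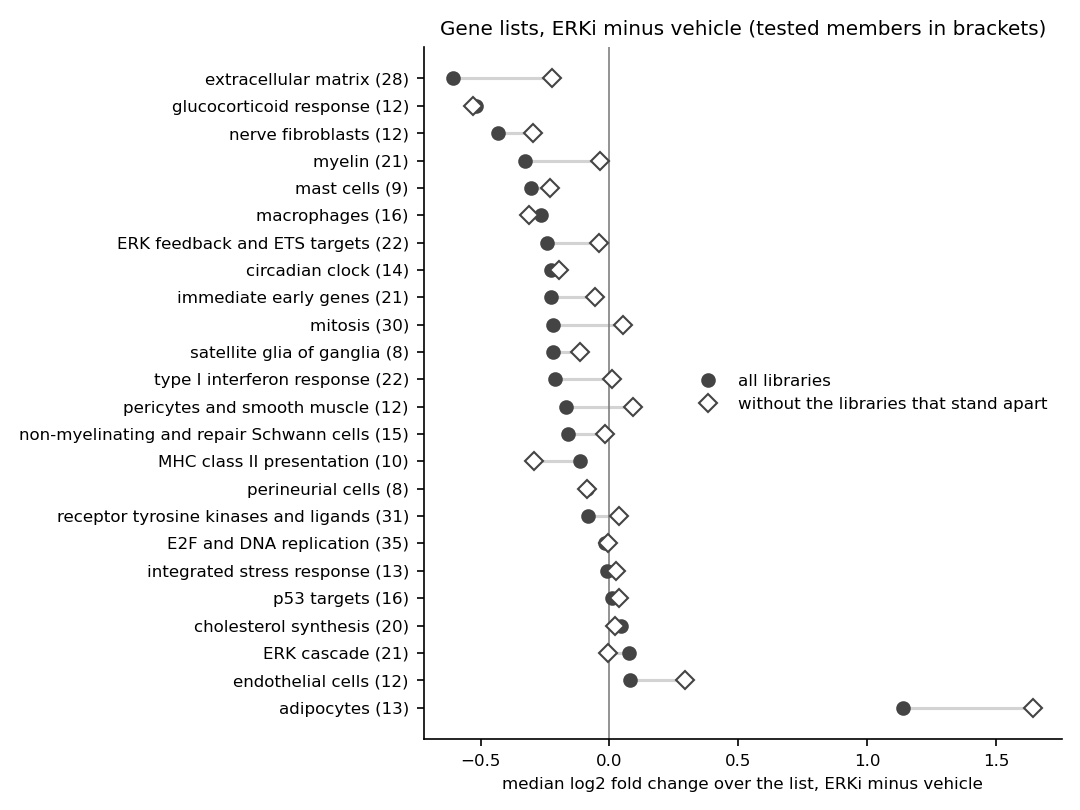
Median log2 fold change, ERKi minus vehicle, of each gene list with at least 8 tested members, leaving out the neuron, liver and muscle lists; filled circles are the fit to all libraries and open diamonds the fit without the libraries that stand apart. The adipocyte list is highest (1.14 and 1.64), the matrix list lowest with all libraries (-0.61 and -0.22), and the mitosis, interferon, pericyte, receptor, ERK cascade and integrated stress response lists lie on the other side of 0 without the 3 libraries, the cascade and stress lists within 0.08 of 0 in both fits.

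Adding abemaciclib to LY3214996 gave no gene with an adjusted p below 0.05 in edgeR against ERKi alone (0 of 15385, 0%), with 1437 genes at an unadjusted p below 0.05. DESeq2 called 71 in this comparison and limma-voom 4. Both this difference and the one against vehicle use the ERKi libraries. Dusp6 measured 84.9, 111 and 165 CPM in the combination, against 107, 160 and 235 CPM in ERKi, a log2 difference of -0.48 ± 0.19 (edgeR adjusted p = 0.48). Spry4 was at 6.76, 18.4 and 35.5 CPM in the combination, against 37.4, 44.6 and 81.0 CPM in ERKi, so these libraries did not overlap (-1.40 ± 0.33, edgeR adjusted p = 0.39). The share of all genes with separate ranges in this comparison is not given here. Etv4 measured 3.41, 5.95 and 8.99 CPM in the combination and 7.57, 16.1 and 19.2 CPM in ERKi (-1.27 ± 0.24, edgeR adjusted p = 0.22), and Egr1 measured 7.51, 38.1 and 55.1 CPM in the combination and 39.3, 106 and 206 CPM in ERKi (-1.85 ± 0.45, edgeR adjusted p = 0.39). Most other feedback and immediate early genes named above were also lower in the combination than in ERKi. Dusp4, Phlda1, Dusp5 and Etv5 were at -0.91 ± 0.27, -0.80 ± 0.26, -0.66 ± 0.38 and -0.55 ± 0.22. Spry1, Egr2, Fos, Spred1, Spred2 and Spry2 were at -0.46, -0.44, -0.39, -0.24, -0.24 and -0.23. Cyr61, Myc and Il17rd were at -0.08, -0.07 and -0.03. Etv1, Ier3, Nr4a1, Ctgf and Ccnd1 were higher, at 0.15 ± 0.16, 0.35 ± 0.21, 0.18 ± 0.245, 0.75 ± 0.46 and 0.17 ± 0.38. Dgat2 was at a log2 difference of -0.16 ± 0.25 and Thrsp at -0.53 ± 0.34, and Hes1 was at -0.04 ± 0.21.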

How the data were processed

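Whole sciatic nerve was profiled by RNA sequencing. Per the labels' protocols, total RNA from a column kit went into KAPA RNA HyperPrep libraries with FastSelect ribosomal RNA removal, although the molecule label reads polyA RNA. Raw read counts per gene were deposited by the authors, covering all 24 libraries. Per the submitters' processing notes, STAR, FastQC and DESeq2 were used with genome build mm10; the sources used here give neither the counting program nor the strand setting or versions, so antisense and near-identical genes may share reads.

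The analysis used edgeR 4.0.16 under R 4.3.3: filterByExpr (minimum count 10, minimum total 15), TMM scaling and a robust quasi-likelihood fit with 1 mean for each group of the 24 libraries (20 residual degrees of freedom, biological coefficient of variation 35.9%). P-values are two-sided, adjusted by Benjamini-Hochberg over 15385 genes with a threshold of 0.05. In every library the tested genes held 98.6% or more of the counts. Per-library log2 CPM had a prior count of 2, and a floor of 3 counts covers counting error only. Chi-square over degrees of freedom was at least 19.5 in each of 30 within-group pairs, so none was a repeat. The fit was tested on simulated data.

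Genes named were 22 fixed ones, the 10 of smallest unadjusted p in each direction (mean log2 CPM 1 or more, and at least 5 of 6 ERKi libraries on one side), DESeq2 calls, up to 4 members of smallest p per list, and non-overlapping genes of at least 2-fold difference. Alb, Adipoq and Scn10a were named as defining markers after their values were seen. Some genes this rule chose are not reported here. Sex-linked, immunoglobulin, T cell receptor and predicted genes and pseudogenes were left out. Members and the 30 lists were chosen with earlier results of these data known, so no list gets a set test. Coordinates and promoters are RefSeq GRCm38.p6, to which 23204 of 24421 symbols (95%) matched. Alternatives were DESeq2 1.42.0, limma-voom 3.58.1 with quality weights, RLE scaling, no filter, only the groups compared, terms for title number series, neuron and adipocyte levels, and leaving out libraries. DESeq2 without the libraries that stand apart, the fit without the muscle libraries and a term for sex were added after seeing the data.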

Additional observations from a re-analysis of the deposited data

Results flagged for a closer look

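In groups of 6, a library was marked where its gap to the nearest other library took up more of the group's whole range than Dixon's critical value for 6 samples allows. That happened for 32 of 238 groups of values tested. Chance alone marks about 1 in 20 of independent, unselected groups. These groups were neither, since many genes were chosen from the same libraries and some lists share members. ERKi 3 gave 22 of the 32, vehicle 3 and vehicle 4 gave 3 each, and ERKi 1, ERKi 5, vehicle 1 and vehicle 2 gave 1 each.

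ERKi 3 was the highest ERKi library for the liver list (gap 0.789 of the range), the neuron list (0.644) and the ERK cascade list (0.626), and the lowest for the myelin list (0.646) and the circadian clock list (0.640). Its liver level was 7.94 log2 CPM, and the other 5 ERKi libraries lay between 0.47 and 2.05. Among single genes it was highest for Pawr (0.756), Mpnd (0.700), Ifitm10 (0.653), Sos1 (0.765), Hras (0.644) and Ngfr (0.656). It was lowest for Spry2 (0.863), Cyr61 (0.685), Pdgfra (0.785), Gldn (0.737), Eng (0.631), Mertk (0.626), Xaf1 (0.747), Nr1d1 (0.783), Alad (0.638), Cep85l (0.707) and Insc (0.687). Pdgfra was at 5.50 log2 CPM in ERKi 3 and 7.27 to 7.75 in the other ERKi libraries, and Mertk at 5.12 and 6.30 to 7.01.

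ERKi 1 was the lowest ERKi library for Dgat2 (0.711), at 2.49 log2 CPM against 3.65 to 4.12. ERKi 5 was the lowest for Gbp2b (0.689) and vehicle 1 the highest of vehicle (0.782). Vehicle 2 was lowest for Spry1 (0.687). Vehicle 3, the shallowest library, was lowest for Stat2 (0.676) and the ERK cascade list (0.729) and highest for the mast cell list (0.643), at 3.28 log2 CPM against 1.21 to 1.95. Vehicle 4 was lowest for Znhit1 (0.706) and Arsb (0.706) and highest for Klf9 (0.647), at 9.14 log2 CPM against 7.47 to 8.06. The causes were not tested.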

How the results depend on the processing

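The count of 0 genes in the ERKi comparison was also 0 under limma-voom, RLE scaling, no count filter, only the groups compared, terms for the title number series, sex or neuron level, without the libraries that stand apart or hold muscle transcripts, and with any 1 ERKi, vehicle or combination library left out. It was 11 under DESeq2, 6 under DESeq2 without the libraries that stand apart, and 1 with the adipocyte list as a covariate (H2-T23, an MHC class I gene, lower at -1.45 ± 0.22, edgeR adjusted p = 0.0156, named after its value was seen). Of the 11 DESeq2 calls, 6 named genes were untested in edgeR for low counts, and 1 predicted gene is not described here. For Cdo1, Dgat2, Thrsp and Hp the cause was not tested. The unadjusted count of 975 ranged from 357 to 2810. The combination minus ERKi count of 0 was 71 under DESeq2 and 4 under limma-voom, and 0 to 1 with 1 library left out, the 1 being without ERKi 3. No paired analysis was possible because the labels give no replicate numbers.

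Of 91 named genes tested, 73 had the same sign under every setting, not counting those that left out a combination library. Without the libraries that stand apart, log2 fold changes became -0.042 (Dusp5), 0.17 (Spry2), 0.0025 (Spry4), -0.17 (Etv5), 0.19 (Phlda1), 0.16 (Ccnd1), 0.23 (Fos), 0.20 (Mki67), 0.077 (Hbegf) and 0.0085 (Gldn). DESeq2 without them gave -0.0030 (Mapk3), -0.045 (Dusp5), 0.16 (Spry2), -0.18 (Etv5), 0.18 (Phlda1), 0.16 (Ccnd1), 0.21 (Fos), 0.16 (Mki67), 0.069 (Hbegf) and 0.00016 (Gldn). limma-voom gave 0.059 (Spry1), 0.089 (Spry2), -0.020 (Spred2), -0.12 (Etv5), 0.15 (Fos), 0.18 (Mki67) and 0.0044 (Ttk). The neuron covariate gave -0.073 (Dusp5), 0.020 (Spry2), -0.057 (Etv5) and 0.036 (Ccnd1), the adipocyte covariate 0.046 (Mki67), -0.10 (Eng) and -0.063 (Insc), and the title number series -0.032 (Spred2). Leaving out 1 library gave -0.96 to 0.061 (without vehicle 4) for Ctgf, -0.21 to 0.010 for Dusp4, -0.083 to 0.16 for Etv5, -0.052 to 0.042 for Spred2 and -0.16 to 0.020 for Spry2. The causes were not tested.

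List medians were not taken under DESeq2 without the libraries that stand apart or with a combination library left out. Of 28 list medians, 11 had the same sign under every other setting. These were adipocytes, circadian clock, ERK feedback, extracellular matrix, glucocorticoid response, immediate early genes, macrophages, myelin, nerve fibroblasts, neurons and satellite glia. Liver genes were decided by ERKi 3, with a median of 3.23 that was -0.31 without it, and muscle genes by ERKi 4 and ERKi 6, with a median of 2.44 that was -0.37 without them. The biological coefficient of variation was 35.9%. Without vehicle 3, the shallowest library, 892 genes had an unadjusted p below 0.05.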
